A study of Rattus norvegicus with 4 samples.

Results

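Interferon-gamma is a cytokine of activated T and natural killer cells, and its targets were examined in 4 rat mammary cancers together with Ubd, which encodes the ubiquitin-like modifier FAT10. The 8 genes were Ifngr1, Socs1, Irf1, Irf8, Gbp2, Gbp5, Igtp and Ubd. They were taken by name, using every probe set that the platform annotation assigns to 1 of these genes alone. That gave 9 probe sets for 7 of the 8 genes, out of 20826 probe sets for 14217 genes on the array. No probe set was assigned to Gbp5 alone, and Gbp5 has no value here. The genes were chosen with their values in view, so their levels are described and not tested.

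The tumours were mammary cancers of female Sprague-Dawley rats, which are outbred. The animals were bought when 5 weeks old. Each received a single whole-body exposure to 0.5 Gy of carbon ions when 7 weeks old. The beam was of 290 MeV/u, with its dose spread over a depth of 6 cm. The animals ate a high-fat diet, with corn oil at 23.5%, after 9 weeks of age. All 4 tumours form 1 group, each on 1 array, with no unexposed comparison among the samples used here, so an effect of radiation or diet cannot be told from these values. Whether each tumour came from its own rat is not stated in the labels. Values are probe-set signals as deposited and, for comparison between tumours, log2(signal + 16). A difference of 1 on that scale is close to 2-fold for bright genes and understates the change of dim ones. A gene is called expressed when the mean log2 value of its brightest probe set reached 7.81, the median of all probe sets, which corresponds to a signal of 209. This held for 9403 genes. The epithelial markers Epcam (12.89 to 13.70 log2) and Krt8 (12.43 to 13.25 log2) were bright in all 4 tumours. Tumour 1 nevertheless had the lowest value of 14 of 16 luminal epithelial markers (30.3% of all named genes were lowest there). Their summed signal was 36154 there against 66348 to 77245 in the other tumours. None was at 0, and between 1 and 2 were under the filter level in each tumour.

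Interferon-gamma binds a receptor made of Ifngr1 and Ifngr2 chains, and the attached Janus kinases start a signal that reaches GAS elements in promoters. The signal induces the transcription factor Irf1, and IRF proteins act through interferon-stimulated response elements (ISRE). The induced genes include the guanylate-binding proteins and immunity-related GTPases, which attack vacuoles of intracellular pathogens, and Socs1, which shuts the kinases down. Ubd is induced by interferon-gamma together with tumour necrosis factor (TNF), which acts through NF-kappaB, and the protein it encodes is conjugated to other proteins and marks them for the proteasome. Such genes are of interest in mammary cancer because they report on contact between tumour and immune cells.

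Promoter windows of the 8 genes were searched for motifs of both routes, interferon-gamma on one side and NF-kappaB on the other. Windows of 300 bases, from 250 before to 50 after the RefSeq start, were available for all 8 genes in assembly GRCr8. They were searched on both strands for the GAS core TTCNNNGAA, for the ISRE core, which is a pair of GAAA units with 2 bases between them, and for the NF-kappaB consensus. The GAS core was present in the windows of Irf1, Irf8, Igtp and Socs1, and in 8.87% of 33469 windows of all genes. The ISRE core was present in Gbp2, Gbp5, Igtp and Socs1, and in 3.92% of all windows. The NF-kappaB consensus was present in Ubd, Gbp5, Irf1 and Socs1, and in 7.51% of all windows. A narrower NF-kappaB pattern, present in 1.3% of all windows, was searched first and had no match in Ubd. The consensus replaced it after those matches were seen. The window of Ifngr1 held none of these motifs. Below are 4 windows, chosen because they show each motif: Ubd, chr20:1392636-1392935 on the minus strand, with an NF-kappaB match that begins at base 236 of the window; Irf1, chr10:38417685-38417984 on the plus strand, with a GAS match at base 109 and an NF-kappaB match at base 186; Gbp2, chr2:234005477-234005776 on the plus strand, with an ISRE match at base 220; and Igtp, chr10:42874797-42875096 on the plus strand, with a GAS match at base 137 and an ISRE match at base 148. Each reads 5′ to 3′ along the gene, and capitals mark the matches.
Ubd: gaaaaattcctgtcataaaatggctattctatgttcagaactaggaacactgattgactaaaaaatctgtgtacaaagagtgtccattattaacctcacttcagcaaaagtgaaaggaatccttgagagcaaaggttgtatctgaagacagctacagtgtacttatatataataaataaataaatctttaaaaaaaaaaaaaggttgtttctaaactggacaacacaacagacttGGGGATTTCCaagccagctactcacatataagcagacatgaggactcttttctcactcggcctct
Irf1: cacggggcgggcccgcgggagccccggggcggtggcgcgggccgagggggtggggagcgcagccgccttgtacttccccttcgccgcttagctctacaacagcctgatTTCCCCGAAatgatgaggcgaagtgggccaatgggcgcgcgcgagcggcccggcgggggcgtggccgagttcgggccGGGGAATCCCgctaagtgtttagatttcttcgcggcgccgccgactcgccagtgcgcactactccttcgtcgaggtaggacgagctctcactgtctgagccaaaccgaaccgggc
Gbp2: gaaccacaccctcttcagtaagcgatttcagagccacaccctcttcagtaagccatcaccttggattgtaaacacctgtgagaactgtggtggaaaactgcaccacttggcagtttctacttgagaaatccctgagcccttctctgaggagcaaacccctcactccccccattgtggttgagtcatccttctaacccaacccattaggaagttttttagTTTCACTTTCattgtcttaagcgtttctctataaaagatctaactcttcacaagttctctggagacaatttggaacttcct
Igtp: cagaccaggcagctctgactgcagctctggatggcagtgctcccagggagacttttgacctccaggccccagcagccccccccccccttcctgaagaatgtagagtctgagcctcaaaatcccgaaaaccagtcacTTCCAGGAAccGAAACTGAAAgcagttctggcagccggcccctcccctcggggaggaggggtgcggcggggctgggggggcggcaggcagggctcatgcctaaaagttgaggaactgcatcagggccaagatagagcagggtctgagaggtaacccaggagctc
A match describes these letters only and was not tied to any factor's binding. In the Socs1 window the 2 ISRE matches, which begin at bases 144 and 150, overlap.

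Among the 7 measured genes Ubd was far above the other 3 tumours in tumour 4, Irf8 was highest and lowest in the same tumours as most macrophage markers, and the receptor chain, Irf1, Gbp2 and Igtp stayed within 2-fold. The highest and lowest tumours differed by 1 log2 or more in 3 of 7 genes, Ubd, Irf8 and Socs1, against 21.1% of all named genes. A range of at least 2 log2 was seen in Ubd alone, against 3.99% of all named genes. The genes were picked with these ranges known, so nothing is read from the counts. Tumour 4 had the highest value of Ubd, Irf1 and Igtp (24.5% of all named genes were highest there), tumour 1 that of Ifngr1, Irf8 and Gbp2 (29.9%), and tumour 2 that of Socs1 (23.2%). No gene of the 7 was highest in tumour 3 (22.4%) on its brightest probe set. The lowest value was in tumour 1 for Igtp (30.3% of all named genes), in tumour 2 for Gbp2, Irf1 and Ifngr1 (20.6%), in tumour 3 for Ubd, Irf8 and Socs1 (25.8%) and in tumour 4 for none (23.3%).

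**Figure D1:**
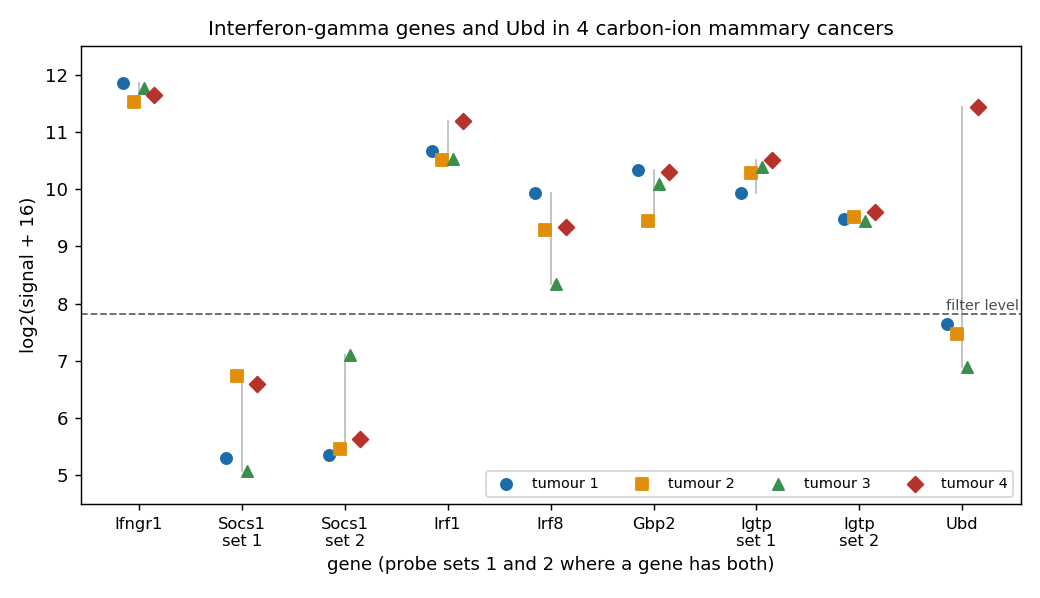
Levels of the 9 probe sets of 7 genes, as log2(signal + 16) on the vertical axis. Each symbol is 1 tumour on 1 array, grey lines span the 4 tumours, and the dashed line is the filter level of 7.81. Ubd lies at 11.44 in tumour 4 and at 6.89 to 7.64 elsewhere, while Ifngr1 spans 0.32.

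Ifngr1, the ligand-binding chain of the receptor, had signals of 3671, 2928, 3459 and 3178 in tumours 1 to 4. It was bright and even, with a range of 0.32 log2 and a standard deviation (SD) between tumours of 0.14. Tumour 1 was highest as deposited, and tumour 3 was highest when the arrays were shifted to a common median, so the order is not settled. Its partner chain Ifngr2 lay between 10.38 and 10.76 log2. The cytokine gene itself, Ifng, was dim, at 6.03, 5.48, 4.90 and 5.73 log2, all under the filter level.

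Socs1, which inhibits the receptor's kinases, was dim on both of its probe sets. On the brighter one its signals were 23.5, 90.6, 17.9 and 80.7, with tumours 2 and 4 above tumours 1 and 3. On the other they were 24.7, 28.1, 121 and 34.0, with tumour 3 alone high. All 8 values lay below the filter signal of 209, and the probe sets gave different orders, so no order of tumours is drawn for Socs1. When the 2 probe sets were averaged, the contrast between tumours 2 and 3, which was 1.65 log2 on the brighter set, became 0.01.

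Irf1, the transcription factor induced first, was bright in every tumour, with signals of 1612, 1445, 1467 and 2323. Tumours 1 to 3 lay within 0.16 log2 of one another, and tumour 4 was 0.52 above the nearest of them. The whole range, 0.68 log2 or 1.61-fold in signal, was exceeded by 27.2% of expressed genes, and the SD was 0.32. Among the 1987 expressed genes that were highest in tumour 4, Irf1 had the 126th largest gap to the next tumour.

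Irf8, a transcription factor of macrophages, dendritic cells and B cells that also responds to interferon-gamma, had signals of 961, 609, 311 and 634. Tumour 1 was highest and tumour 3 lowest, with tumours 2 and 4 within 0.06 log2 of each other between them. The range was 1.58 log2, a 3.10-fold ratio of signals, and the SD was 0.65. Markers of macrophages and myeloid cells fell in the same order of tumours as a summed signal over 20 measured genes, with 36352 in tumour 1, 23196 in tumour 4, 22012 in tumour 2 and 16728 in tumour 3. Of these 20 markers, 17 were highest in tumour 1 (29.9% of all named genes were) and 16 lowest in tumour 3 (25.8%). None was at 0, and between 2 and 5 were under the filter level in each tumour. Markers of B and plasma cells summed to 2725, 747, 774 and 2764 in tumours 1 to 4, and those of dendritic cells to 579, 447, 237 and 384. In each tumour 6 or 7 of the 8 former and 3 or 4 of the 4 latter were under the filter level. The part of these cells in the level of Irf8 was not tested, and in such bulk tissue fewer cells and less RNA per cell cannot be told apart. Without tumour 3 the range of Irf8 was 0.64 log2, and without tumour 1 it was 0.99.

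Gbp2, a guanylate-binding protein, had signals of 1272, 678, 1074 and 1245. Tumour 2 stood below the others, by 0.65 log2 from the nearest, and tumours 1 and 4 differed by 0.03. The range was 0.89 log2, or 1.88-fold in signal, and without tumour 2 it was 0.24. Its promoter window is the one above with an ISRE core close to the start.

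Igtp, an immunity-related GTPase, had signals of 964, 1224, 1327 and 1435 on its brighter probe set and 698, 716, 678 and 760 on the other. Both placed tumour 4 highest, but the ranges were only 0.57 and 0.16 log2. Tumour 1 was lowest on the first and tumour 3 on the second. A further probe set that names Igtp also names related genes and was not used here.

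Ubd had signals of 183, 161 and 102 in tumours 1 to 3 and 2768 in tumour 4. Tumour 4 was thus 15.1-fold above the next tumour and 27.0-fold above the lowest. On the log2 scale the values were 7.64, 7.47, 6.89 and 11.44, with a gap of 3.81 between tumour 4 and the next and a span of 0.75 among the other 3. In tumours 1 to 3 Ubd lay at the 45.9th, 45.4th and 36.0th percentile of the probe sets on the array, and in tumour 4 at the 96.1st. The first 3 values are under the filter level, so Ubd counts as expressed only through tumour 4 and the size of its difference is uncertain. Its range ranked 14 among 9403 expressed genes and its gap ranked 1 among the 1987 expressed genes highest in tumour 4. Over all named genes the ranks were 27 of 14217 by range and 2 of 3486 by gap. Ubd was the only one of the 7 genes at least 1 log2 above every other tumour in tumour 4, as were 0.717% of all named genes. Ubd has 1 probe set, and with 1 array per tumour its value has no replicate check. Without tumour 4 the range of Ubd was 0.75 log2.

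**Figure D2:**
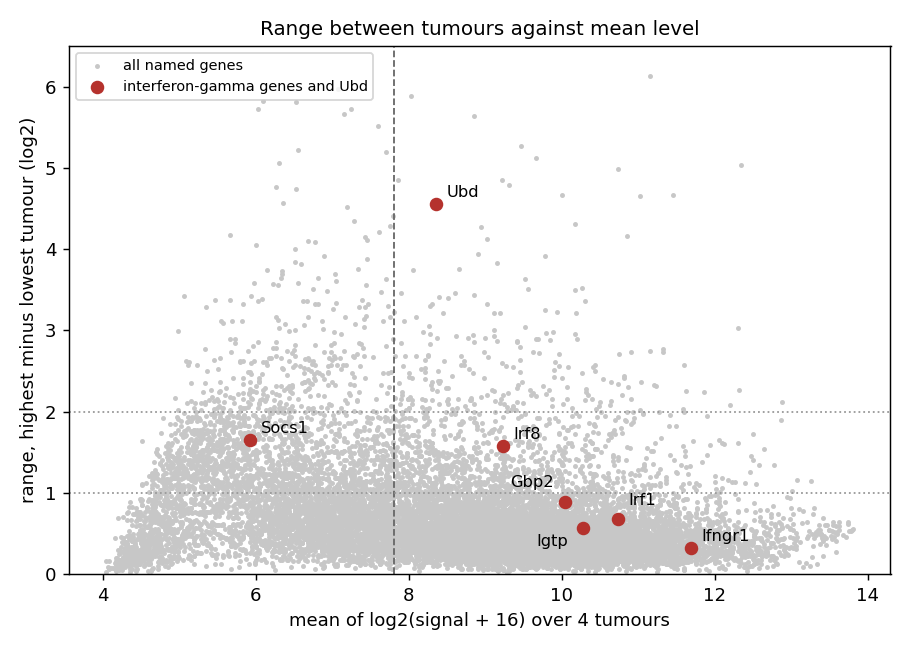
Range between the highest and lowest of 4 tumours (vertical axis, log2) against the mean level (horizontal axis, log2 of signal + 16) for 14217 named genes in grey and the 7 measured genes in red. The dashed line is the filter level and dotted lines mark ranges of 1 and 2. Ubd lies at a range of 4.55, while Socs1, at 1.65, lies left of the filter level.

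Fibroblast markers also set tumour 4 apart, in the opposite direction. All 9 were lowest in tumour 4, where 23.3% of all named genes were lowest. Their summed signal was 15419 there against 38755 to 49149 in the other tumours. T and natural killer cell markers had a summed signal of 4562 in tumour 4 and 4532 in tumour 1, against 4076 and 2976 in tumours 2 and 3. Between 14 and 20 of the 23 measured markers of those cells were under the filter level in each tumour, and none was at 0. Counted by marker, 9 were highest in tumour 4 (24.5% of all named genes were highest there) and 7 in tumour 1 (29.9%). A further 3 were highest in tumour 2 (23.2%) and 4 in tumour 3 (22.4%). In tumour 4 each of the 6 expressed ones exceeded the average of tumours 1 to 3. In tumour 1, 5 of the 6 exceeded the average of tumours 2 to 4. The largest signal within the sum of tumour 1 was that of Cd4, at 842 there and 638 in tumour 4. Macrophage markers were not highest in tumour 4 for any of 20 genes. Tumour 1, with a T and natural killer cell sum of 4532 and the highest macrophage sum, had a Ubd signal of 183. With 1 array per tumour, the part of fibroblasts, lymphocytes or macrophages in the level of Ubd was not tested.

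The expressed genes with the profile most like that of Ubd over the 4 tumours were 2 class I genes of the major histocompatibility complex (MHC) and a lactate transporter. Likeness was the Euclidean distance between log2 values centred on each gene's mean. RT1-CE10 was nearest, at a distance of 0.75, with 9.89, 9.15, 8.17 and 12.84 log2. RT1-CE16 followed at 0.89, with 7.96, 8.03, 7.47 and 10.93, and then Slc16a3 at 1.26, with 8.24, 8.32, 7.93 and 10.87. All 3 were at least 2 log2 above every other tumour in tumour 4. The probe sets of both RT1 genes are of a type whose probes can bind related class I transcripts, so which class I gene they measured is uncertain. Ubd and both RT1 genes lie on chromosome 20 in RefSeq. The 9 measured genes that flank Ubd most closely in RefSeq order, 4 on one side and 5 on the other, did not share its profile. None had a range of 2 log2, and the largest was 1.44 for Mog, a myelin gene under the filter level, which was the only one highest in tumour 4. RT1-M3-1 on one side was at 10.08 to 10.70 log2 and Gabbr1 on the other at 10.04 to 10.51.

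**Figure D3:**
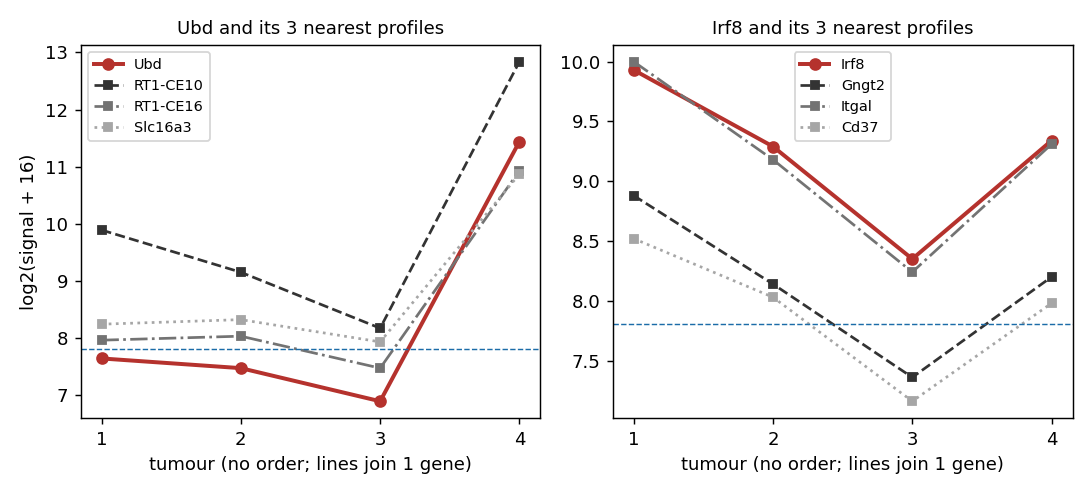
Log2(signal + 16) in tumours 1 to 4 for Ubd and Irf8 (red) and, in grey, the 3 expressed genes nearest to each in centred profile. Lines join the values of 1 gene and the tumours have no order. All 4 curves on the left rise in tumour 4 alone, and the 4 on the right are highest in tumour 1 and lowest in tumour 3.

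The genes nearest to Irf8 included 2 of leukocytes. They were Gngt2, a G-protein subunit, at a distance of 0.13, Itgal, the integrin chain of leukocyte adhesion, at 0.15, and Cd37, a tetraspanin of leukocytes, at 0.17. Gngt2 measured 8.88, 8.14, 7.36 and 8.20 log2 across the tumours, against 9.93, 9.29, 8.35 and 9.34 for Irf8. The genes nearest to Socs1 on its brighter probe set were Dynlrb2, Il17b and Extl1, at 0.24, 0.26 and 0.54, but the dim signal of Socs1 makes this likeness uncertain.

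FAT10 acts with a small set of partners, and their transcripts were more even than that of Ubd. None of 7 had a range of 1 log2 (12.4% of expressed genes did), and the median range was 0.45 against 0.47 over all expressed genes. Uba6, the enzyme that activates FAT10, was lowest in tumour 4, at 9.98 against 10.01 to 10.41 log2. Ube2z, which conjugates it, was at 11.07, 11.49, 11.79 and 11.81. Nub1, which hastens breakdown of FAT10 by the proteasome, was at 10.10 in tumour 4 and 9.93 to 9.95 elsewhere, a range of 0.17 log2. Sqstm1, an autophagy receptor that binds FAT10, was at 12.37 in tumour 4 against 11.92 to 12.13. Among other ubiquitin-like modifiers 1 of 8 had a range of 1 log2. It was Isg15, which is induced by type I interferon and was at 11.10 in tumour 1 against 10.03 to 10.13. Sumo2 and Nedd8 had ranges of 0.14 and 0.25.

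The rest of the interferon-gamma pathway did not share the size of the contrast of Ubd. Of 39 other pathway genes with a probe set, 31 were expressed, and 7 of these (22.6%) had a range of at least 1 log2, beside 12.4% of all expressed genes. None of the 31 reached 2 log2, and their median range was 0.55, beside 0.47. Among the dim pathway genes Vcam1 had a range of 2.23, against 4.55 for Ubd. It was at 8.79 in tumour 1 and 6.56 in tumour 2, and its mean of 7.72 lay just under the filter level. The 7 expressed genes with a range of at least 1 log2 were Nos2, Cd74, Cxcl9, Cxcl11, Il18bp, Tap2 and Ptpn6. That number was 4 without tumour 1 and 4 without tumour 3.

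In the signalling part of the pathway, 10 expressed genes had a median range of 0.40. Jak1, a kinase of the receptor, was at 11.88 to 12.23 log2, and Jak2, the other, was lowest in tumour 1, at 9.59, with at most 10.23 elsewhere. The inhibitors Socs3 and Ptpn6 were highest in tumour 1, at 8.82 and 9.55, against at most 8.09 and 8.95 elsewhere. Ptpn6 encodes a phosphatase of blood cells, and the macrophage sums given above were also highest in tumour 1. The part of such cells in its level was not tested.

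Among 21 expressed target genes, 9 were highest and none lowest in tumour 4 (21.1% and 25.1% of expressed genes). Measured from the mean of the other 3 tumours, their median difference was 0.17 log2 there, beside -0.02 over all expressed genes. After a shift to a common median it was 0.11, with 7 genes highest. Over all expressed genes it was then -0.08, with 1305 of 9403 highest in tumour 4. In tumour 1 the median was -0.15, beside -0.04, with 12 genes lowest and 6 highest (36.2% and 28% of expressed genes). That median was -0.01 under quantile normalization and -0.01 with probe sets averaged, so the lower level in tumour 1 depends on these choices. Over all 28 measured targets, dim ones included, 12 were highest in tumour 1 (29.9% of all named genes) and 10 in tumour 4 (24.5%). None was lowest in tumour 4 (23.3%). The fibroblast and T-cell sums given above for tumour 4 apply to these genes too, and their part was not tested.

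Targets of the same role did not all share an order of tumours. Cxcl9 and Cxcl11, chemokines that attract T cells through the receptor CXCR3, were highest in tumour 4 and lowest in tumour 1. Cxcl9 was at 8.26, 8.84, 9.40 and 9.68 log2, and Cxcl11 at 8.17, 8.23, 8.83 and 9.47. The third ligand of that receptor, Cxcl10, had a different order, with 8.58 in tumour 1 and 7.11 to 7.93 elsewhere, and a mean just under the filter level. The GTPase Irgm2 was at 10.85, 10.88, 11.39 and 11.64, while Irgm was lowest in tumour 3, at 9.36 against 9.92 to 10.21. Gbp4 was dim, at 5.88 to 7.22.

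Among 11 expressed genes of antigen processing, 8 were lowest in tumour 1, where 36.2% of expressed genes were lowest. Luminal epithelial markers were also lowest there in 14 of 16 genes, with the sums given above, and their part was not tested. Tap2, a chain of the peptide transporter, was at 9.66, 10.37, 10.73 and 10.06, and the immunoproteasome gene Psmb9 at 11.83, 12.52, 12.61 and 12.29. Tap1, the other transporter chain, had a range of 0.27, Psmb8 one of 0.34 and B2m, the light chain of class I, one of 0.41.  Cd74, the invariant chain of class II, went another way, with 11.64 in tumour 3 against 12.75 to 13.17. Nos2, the inducible nitric oxide synthase, was at 8.85, 8.57, 7.21 and 7.71. Il18bp, a secreted inhibitor of interleukin-18, was at 7.46 in tumour 3 against 8.24 to 8.77. In tumour 3, where Cd74, Nos2 and Il18bp were lowest, 25.8% of all named genes were lowest. So were 16 of 20 macrophage and 15 of 23 T and natural killer cell markers, and their part was not tested.

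**Figure D4:**
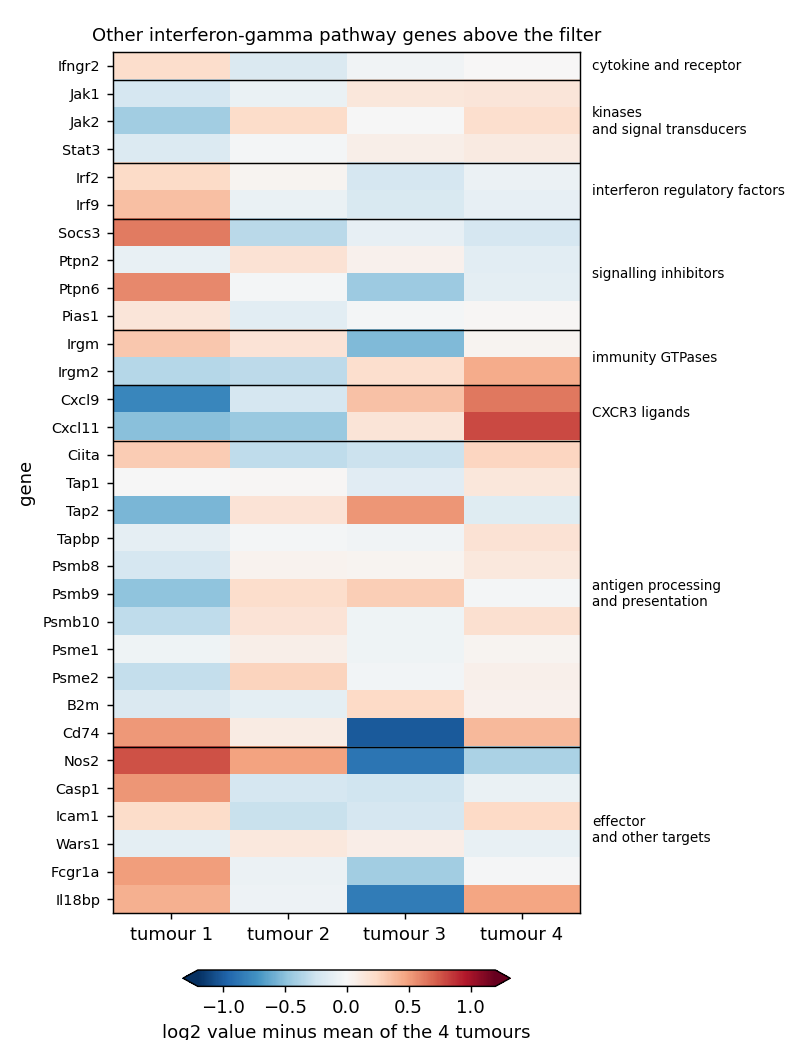
Difference of each of 31 expressed interferon-gamma pathway genes (rows, grouped by role) from its mean over the 4 tumours (columns), in log2 and coloured from blue (below) to red (above). Cxcl9 and Cxcl11 are reddest in tumour 4, Cd74, Nos2 and Il18bp are bluest in tumour 3, and the 11 antigen processing genes other than Cd74 and Tap2 vary by less than 1 log2.

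Besides interferon-gamma, Ubd is induced by TNF acting through NF-kappaB, whose part in the level of Ubd here was not tested. Which tumour was highest for most TNF target genes differed when dim genes were included. Of 10 expressed genes 7 were highest in tumour 4, beside 21.1% of expressed genes, and the median difference from the other tumours was 0.41 log2. The number was 7 of 10 in each of the 5 alternatives that kept all tumours, and the median lay between 0.34 and 0.42. In tumour 2, 8 of 10 were lowest, beside 17.6% of expressed genes. Over all 19 measured genes of the list, dim ones included, 10 were highest in tumour 1 (29.9% of all named genes) and 8 in tumour 4 (24.5%). Tnfaip3, a feedback inhibitor of NF-kappaB, was at 10.04 against 9.04 to 9.53, and the subunit gene Nfkb1 at 11.16 against 10.47 to 10.69. Among the 10 expressed genes the largest ranges were those of Cxcl1 and Birc3, which were highest in tumour 1, at 10.97 and 9.77. Tnf itself was dim, at 7.90, 6.66, 5.12 and 5.24. In tumour 1, where more of the 19 genes were highest, 17 of 20 macrophage markers were highest too, and their part was not tested. The ranges of the 10 expressed genes were all under 2 log2. In tumour 4 all 9 fibroblast markers were lowest, and all 9 expressed basal and myoepithelial markers lay above the mean of the other tumours, with summed signals over the 10 measured of 31967, 28486, 22252 and 34475 in tumours 1 to 4. None of these markers was at 0, and their part was not tested.

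Genes of the type I interferon response were highest in another tumour. Of 16 expressed genes 13 were highest in tumour 1, where 28% of expressed genes were highest, with a median difference of 0.87 log2 from the others. In tumour 4 the median was -0.24 and 1 gene, Ifit1, was highest. Macrophage markers were also highest in tumour 1, and their part was not tested. Among the expressed genes, Mx1, Mx2, Rsad2 and Ifit2, which act against viruses, had the largest ranges, from 2.16 to 2.98.

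**Figure D5:**
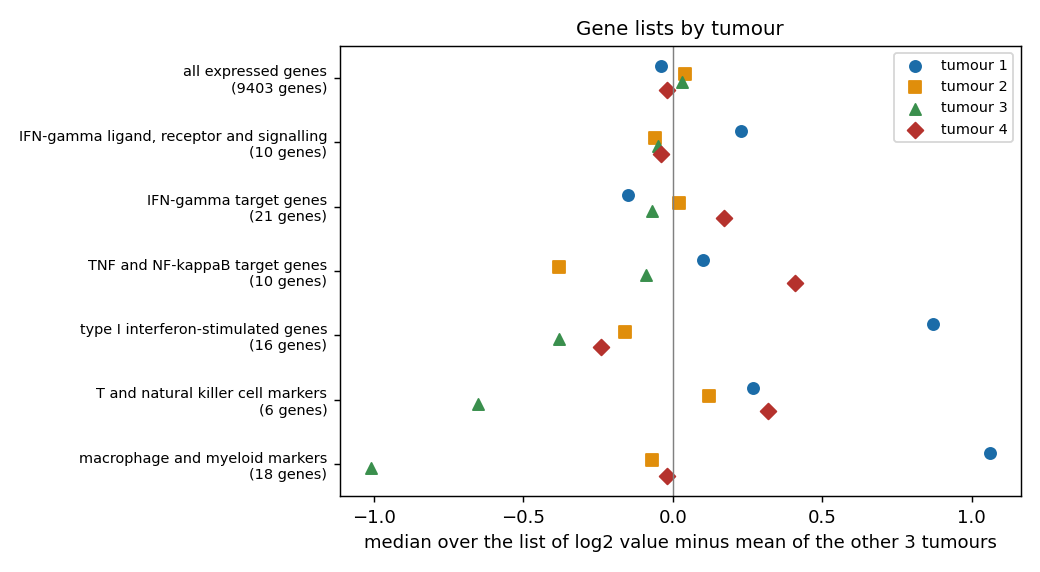
For each gene list (vertical axis, with its number of expressed genes) the median over genes of the log2 value minus the mean of the other 3 tumours (horizontal axis), 1 symbol per tumour. The list medians of interferon-gamma targets, TNF targets and T and natural killer cell markers are largest in tumour 4, at 0.17, 0.41 and 0.32. Those of type I interferon genes, macrophage markers and interferon-gamma signalling genes are largest in tumour 1, at 0.87, 1.06 and 0.23. Among expressed genes, Icam1 belongs to both target lists.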

How the data were processed

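Total RNA of 4 mammary cancers was copied to cDNA with an oligo-dT primer, and biotin-labelled cRNA was hybridised, per the labels' protocols. The deposited values are intensities on a linear scale, 1 for each of 31099 probe sets, as the authors supplied them. How they were computed and scaled is not given in the sources used here, but the mean signal with the top and bottom 2% removed was 500.1 on all 4 arrays, so they had been brought to a common level, and no further shift was applied. Median signals were 201.8 to 221.9. The number of arrays limits the precision.

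Intensities were transformed as log2(value + 16) with pandas 2.3.3 and numpy 2.4.6. Genes were named from the platform annotation: 20826 probe sets named 1 gene and 436 several, and the latter were not used. The gene identifiers of 20758 were found in RefSeq GRCr8. Of several probe sets the one with the highest mean stood for the gene. With 1 group and 1 array per tumour, no comparison was tested. Dixon's criterion was used only to mark profiles with 1 tumour apart. Scripts were tested on simulated data.

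The members and lists were chosen with earlier results of these data known, and the division of pathway genes into roles and the choice of genes flanking Ubd were made after their values were seen. Besides all members, genes were named by rule: per list, those with a 2-fold range, at most the 4 largest, genes whose role is described, and the 3 nearest profiles of members with a 2-fold range. Promoter sequences are RefSeq's, for assembly GRCr8, and matched all 8 members by symbol. Alternatives were pseudocounts of 1 and 64, median shift, quantile normalization, averaged probe sets, other filters and leaving out each tumour.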

Additional observations from a re-analysis of the deposited data

Results flagged for a closer look

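Of 71 gene profiles checked over the 4 tumours, 6 had 1 tumour apart from the others by a gap past Dixon's 95% critical value. Chance passes it in about 1 of 20 groups, and 5.63% of all expressed genes did, but the genes here were chosen with their values known, so the number is a description and no test. Ubd, which counts as expressed only through tumour 4, was apart there with a gap of 0.836 of its range. RT1-CE16 (0.84) and Slc16a3 (0.867), also high in tumour 4, were picked for their likeness to Ubd. The dimmer probe set of Socs1 was apart in tumour 3 (0.83) at signals under the filter level. Nub1 was apart in tumour 4 (0.89), over a range of 0.17 log2. Isg15 was apart in tumour 1 (0.91).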

How the results depend on the processing

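The number of the 7 measured genes with a 2-fold range was 3 and stayed between 2 and 3 under all 9 alternatives. The number with a 4-fold range was 1, and it was 2 with a pseudocount of 1, which adds Socs1, and between 0 and 1 when each tumour was left out, with 0 without tumour 4. The contrast of Ubd was 4.09 to 4.74 log2 under the settings that kept all tumours and 0.75 to 4.55 when 1 was left out, the lowest value without tumour 4. The number of other interferon-gamma pathway genes with a 2-fold range, 7, was 11 without a filter, 2 with the filter at the 75th percentile, which tests fewer genes, and between 4 and 8 when each tumour was left out. The contrast of Socs1 between tumours 2 and 3 reversed to -1.64 without tumour 4, because its other probe set was then the brighter. With each tumour left out in turn, and the contrast taken between the highest and lowest of the rest where tumour 2 or 3 was absent, values for Socs1 ran from -1.64 to 1.76. A contrast taken anew in this way is positive by construction, so its sign shows no stability. A shift to a common median moved the median difference over all expressed genes from -0.04 to -0.13 in tumour 1 and from 0.03 to 0.11 in tumour 3. No paired analysis was possible because all samples belong to 1 group. Values under a signal of 209 limit what can be said of Socs1, and of Ubd in tumours 1 to 3.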
